A study of Mus musculus with 4 samples.

Results

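Pard3 and Frmd4b encode scaffold proteins of cell polarity, and the regions described here are the 13 ATAC-seq peaks that the authors' deposited table assigns to either gene, out of 6891 peaks listed in all. Pard3 had 6 of these peaks and Frmd4b had 7. The genes were picked because several of their peaks were listed and most of those had a lower level in knockout (KO) than in control (CTR) cells, so the direction, the fold changes and the number of peaks given below describe the selection and test nothing. A listed peak is one whose unadjusted p-value in the authors' comparison was at most 0.0499; peaks above that are not in the table and were not analysed here.

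ATAC-seq cuts and tags open DNA with a transposase, so a higher signal marks more accessible chromatin. The cells were endothelial cells captured with beads against CD31 from mouse retinas at postnatal day 7, when the vessel sheet is still growing. KO pups were positive for the Pdgfb-driven, tamoxifen-dependent Cre (Pdgf{beta}CreERT2pos Rnf20p/p), and CTR pups were negative for it (Pdgf{beta}CreERT2neg Rnf20p/p). Pups of both genotypes carried the same Rnf20 allele on both chromosomes (Rnf20tm1a in the strain field, on C57BL/6), which the protocol calls floxed. They also received 75 µg of 4-hydroxytamoxifen on each day from postnatal day 1 to 4. Rnf20 encodes the ligase that places ubiquitin on histone H2B. The Pdgfb driver restricts Cre largely to endothelium, and the sources used here do not state how much Rnf20 these cells lost.

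The labels list 4 libraries, of which 1 KO and 1 CTR library have a title and a genotype that agree, while in the other 2 the title and the genotype field contradict each other. The table carries a single mean for KO and a single mean for CTR per peak and does not say which libraries entered each, so no spread between animals can be given and the depth is unknown. Either mean, and so every fold below, may include a library of the other genotype. All levels below are the authors' group means as log2 signal per peak, not divided by peak width. The table lists changed peaks and not all open regions, so endothelial identity could not be checked from it. Rnf20 had no listed peak, so the deletion could not be checked either.

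Polarity proteins tell a cell which side faces the lumen, the neighbour or the matrix. PAR3, the product of Pard3, is a scaffold with PDZ domains that binds PAR6 and atypical protein kinase C and sits at cell junctions. In endothelium it associates with VE-cadherin, and in growing mouse retinal vessels it has been tied to ephrin-B2 and to the uptake of VEGF receptors. FRMD4B, also called GRSP1, is a FERM domain protein that binds the cytohesin GRP1 (Cyth3), an exchange factor for the small GTPase ARF6, and its relative FRMD4A links PAR3 to the cytohesin and ARF6 route. In the mouse retina Frmd4b is known as a genetic modifier: a variant of it suppresses the photoreceptor dysplasia of Nr2e3 mutant mice.

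Both genes are long. RefSeq places Pard3 on the plus strand at chr8:127063381-127612286 and Frmd4b on the minus strand at chr6:97286867-97617657 (build GRCm38.p6, the same assembly as the mm10 of the table). Of the 13 peaks, 10 lay in introns and 3, all of Pard3, were intergenic. The start sites matter for reading the positions. The distances of all 6 Pard3 peaks matched an internal Pard3 start at 127299612 within 1 base. Those of Frmd4b matched the outermost start at 97617657 for 1 peak, an internal start at 97487820 for 4 peaks, and a further internal start at 97459286 for 2 peaks, again within 1 base. The Pard3 peak of smallest p lay on the start of another transcript. It (chr8:127441195-127441460) contains the RefSeq start, at 127441285, of LOC115486907, a long non-coding RNA that runs on the minus strand from 127441285 to 127434872, antisense to Pard3 within its intron 20. This promoter is shown because a peak lies on it, and the internal promoters because the peak positions were counted from them.

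The sequences below are the 250 bases before each start, 5′ to 3′ on the strand of the transcript, from RefSeq on GRCm38.p6. In the LOC115486907 promoter the capitals mark the 175 bases that lie inside the Pard3 peak. In the other promoters capitals mark matches on either strand to any of the motifs searched. These were a longer motif of ETS factors written CCGGAA, the motif of Jun and Fos (AP-1) written TGANTCA, that of the GATA factors written AGATAA, that of the SOX factors written ACAAAG, and that of the Notch effector RBPJ written GTGGGAA. The short ETS core, GGAA, lies within the longer ETS motif and within the RBPJ motif, and was counted but is not in capitals on its own.
LOC115486907 (chr8:127441286-127441535, minus strand): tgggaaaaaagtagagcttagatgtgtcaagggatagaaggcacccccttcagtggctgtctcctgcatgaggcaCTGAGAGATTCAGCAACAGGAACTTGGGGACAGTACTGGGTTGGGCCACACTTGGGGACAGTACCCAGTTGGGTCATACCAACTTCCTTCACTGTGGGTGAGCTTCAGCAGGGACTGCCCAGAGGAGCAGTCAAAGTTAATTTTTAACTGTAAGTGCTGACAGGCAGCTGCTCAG
Pard3 internal (chr8:127299362-127299611, plus strand): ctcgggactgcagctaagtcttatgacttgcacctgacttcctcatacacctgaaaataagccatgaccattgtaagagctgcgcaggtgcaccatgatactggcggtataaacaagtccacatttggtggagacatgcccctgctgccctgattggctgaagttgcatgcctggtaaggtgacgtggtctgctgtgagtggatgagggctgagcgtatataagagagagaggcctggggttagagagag
Frmd4b outermost (chr6:97617658-97617907, minus strand): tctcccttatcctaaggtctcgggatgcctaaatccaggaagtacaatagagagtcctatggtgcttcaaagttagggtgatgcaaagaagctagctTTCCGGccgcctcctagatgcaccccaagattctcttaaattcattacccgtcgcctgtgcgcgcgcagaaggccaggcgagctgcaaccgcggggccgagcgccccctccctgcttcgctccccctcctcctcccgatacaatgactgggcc
Frmd4b first internal (chr6:97487821-97488070, minus strand): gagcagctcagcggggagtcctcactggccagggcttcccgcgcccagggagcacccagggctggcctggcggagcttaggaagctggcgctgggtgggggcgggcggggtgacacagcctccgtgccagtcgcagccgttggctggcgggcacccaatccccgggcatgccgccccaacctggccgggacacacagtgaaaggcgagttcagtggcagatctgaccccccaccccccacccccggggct
Frmd4b second internal (chr6:97459287-97459536, minus strand): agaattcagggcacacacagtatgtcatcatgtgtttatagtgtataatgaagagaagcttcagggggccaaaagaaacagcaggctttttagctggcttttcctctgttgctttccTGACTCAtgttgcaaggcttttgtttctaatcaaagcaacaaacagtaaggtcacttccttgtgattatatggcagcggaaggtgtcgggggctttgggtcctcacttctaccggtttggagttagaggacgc

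These promoters differ in base composition. GC content was 51.6% at the LOC115486907 and at the internal Pard3 promoter, 57.6% at the outermost Frmd4b promoter, 72.4% at its first internal and 45.2% at its second internal one, against a median of 52.4% over 32851 RefSeq promoters. The outermost and the first internal Frmd4b promoter held 15 and 16 CpG pairs. The second internal one held 4, the internal Pard3 promoter 5 and the LOC115486907 promoter 0, against a median of 6. AP-1 letters occurred once, 133 bases before the second internal Frmd4b start, and 6.75% of all promoters hold them. CCGGAA letters, read on the opposite strand, occurred once in the outermost Frmd4b promoter, as in 12% of all promoters. The letters searched for GATA, SOX and RBPJ, found in 9.99%, 16.5% and 5.42% of all promoters, were absent from all 5 of these windows. The GGAA core, in 93.4% of promoters, was present in each of the 5. A further Pard3 promoter, of the start at 127064056, is not printed because no peak distance matched that start. It held 79.2% GC, 34 CpG pairs and 0 GGAA cores. Letter matches describe these windows and are not evidence of binding.

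At the LOC115486907 start, the log2 signal was 2.70 in KO and 4.36 in CTR cells per the authors' deposited table. The fold was -1.66 at an unadjusted p of 0.000672 and a false discovery rate (FDR) of 0.0968 per the authors' deposited table, the smallest FDR of the 13 peaks. An FDR is the share of false calls expected among all peaks with a p as small or smaller. On the linear scale the KO mean was 0.316 times the CTR mean. In bulk cells, fewer cells with the site open and a less open site per cell cannot be told apart.

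A second Pard3 peak lay 881 bases away, inside LOC115486907 and the same Pard3 intron (chr8:127440203-127440314). Its log2 signal was 1.48 in KO and 3.52 in CTR cells, a fold of -2.04 at FDR 0.236 per the authors' deposited table. These neighbours may share an open region, so they are not independent observations. Further along, in intron 22, the peak chr8:127543096-127543442 had 3.08 in KO and 4.13 in CTR cells, a fold of -1.05 at FDR 0.409 per the authors' deposited table. A long non-coding RNA start in RefSeq lies 68474 bases from its edge, nearer than any Pard3 start. All 3 Pard3 peaks inside the gene therefore stood lower in KO, and all lay in its later introns, 377 to 480 kb from the outermost RefSeq start.

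The other 3 Pard3 peaks lay past the end of the gene and went both ways. At 54.6 kb past the end, chr8:127666861-127667040 had a log2 signal of 3.68 in KO and 2.20 in CTR cells, a fold of 1.48 at FDR 0.48 per the authors' deposited table. At 78.9 kb, chr8:127691233-127691387 had 3.08 in KO and 1.17 in CTR cells, a fold of 1.90 at FDR 0.501 per the authors' deposited table. At 145 kb, chr8:127757140-127757272 had 1.79 in KO and 3.34 in CTR cells, a fold of -1.55 at FDR 0.494 per the authors' deposited table. These are assigned to Pard3 by distance alone, at 367339 to 457594 bases from its internal start. In RefSeq a start of another gene lies nearer to each, that of the long non-coding RNA gene Gm32590. It is 138695, 114348 and 48463 bases from the edges of the 3 peaks. The next protein-coding gene on that side is Nrp1, the VEGF and semaphorin co-receptor, whose body begins 746 kb past the end of Pard3 and which had 0 listed peaks.

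**Figure D1:**
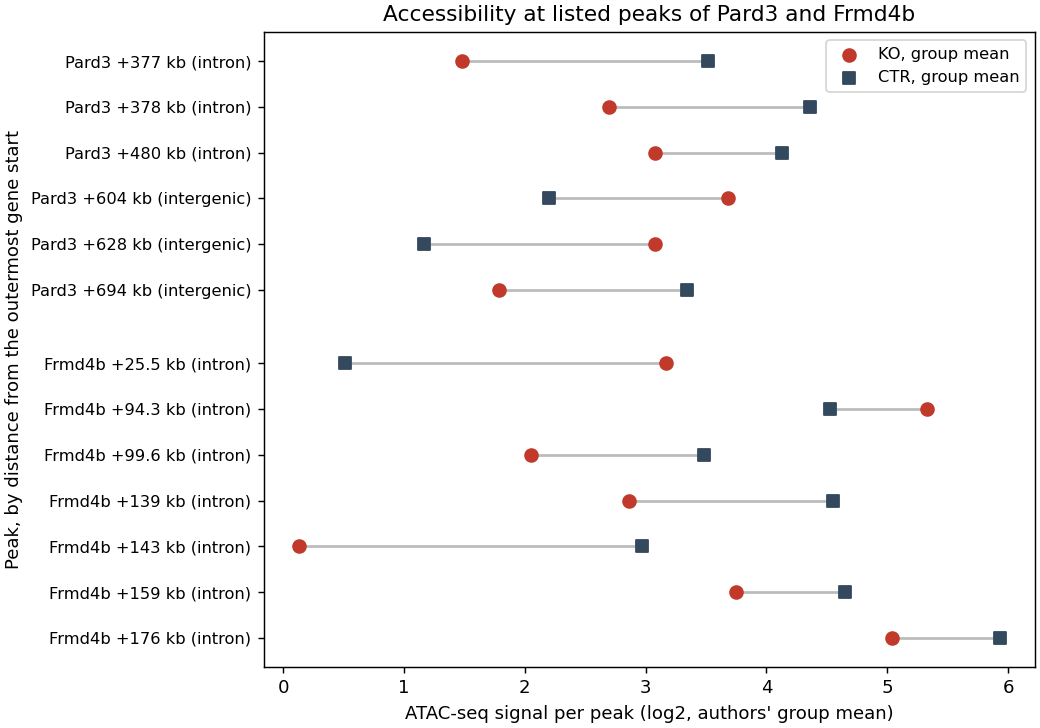
Log2 ATAC-seq signal of the 13 listed peaks (x axis) by distance from the outermost RefSeq start of Pard3 or Frmd4b (y axis), with the KO mean as a circle and the CTR mean as a square; each is 1 group mean by the authors, so there are no error bars. The KO circle lies left of the CTR square at 4 of 6 Pard3 and 5 of 7 Frmd4b peaks.

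Frmd4b peaks were split by position along the gene. Nearest to the outermost start, in intron 1 of NM_145148 and 25.5 kb into the gene, chr6:97592100-97592283 had a log2 signal of 3.17 in KO and 0.51 in CTR cells per the authors' deposited table. That was the largest positive fold of the 13 peaks, 2.67 at FDR 0.153 per the authors' deposited table. The CTR level there was low, so the fold rests on a weak peak. This peak also overlaps another RefSeq gene, LOC115486428. A long non-coding RNA start lies 24203 bases from its edge, slightly nearer than any Frmd4b start. The other Frmd4b peak with a higher KO level lay in intron 2 at 94.3 kb (chr6:97523172-97523515), with 5.33 in KO and 4.53 in CTR cells, a fold of 0.80 at FDR 0.425 per the authors' deposited table.

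From there on every listed Frmd4b peak stood lower in KO, starting only 5025 bases away. At 99.6 kb, chr6:97517990-97518147 had 2.05 in KO and 3.48 in CTR cells, a fold of -1.44 at FDR 0.531 per the authors' deposited table. Its p of 0.0469 per the authors' deposited table put it nearest to the listing threshold among the 13. Both of these intron 2 peaks overlap the long non-coding RNA gene Gm46970, so within it the listed peaks had opposite signs.

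The next pair lay on the far side of the first internal start, 8737 and 13273 bases downstream of it. The peak chr6:97478910-97479256 had 2.86 in KO and 4.55 in CTR cells, a fold of -1.69 at FDR 0.387 per the authors' deposited table. The peak chr6:97474473-97474620 had 0.13 in KO and 2.97 in CTR cells, at FDR 0.109 per the authors' deposited table. The KO value of 0.13 is the lowest in its column and is shared by 65 listed peaks, so the deposited fold of -2.84 per the authors' deposited table depends on that floor and is neither an estimate nor a bound.

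The last 2 peaks lay downstream of the second internal Frmd4b start. Only 742 bases downstream of it, chr6:97458464-97458624 had 3.75 in KO and 4.65 in CTR cells, a fold of -0.89 at FDR 0.508 per the authors' deposited table. It is the member peak closest to a Frmd4b or Pard3 start, and it lies outside the promoter sequence printed above. At 17800 bases, chr6:97441092-97441879 had 5.04 in KO and 5.93 in CTR cells, a fold of -0.90 at FDR 0.237 per the authors' deposited table. With a width of 787 bases it was wider than 96.9% of all listed peaks, and it had the highest mean signal of the 13, 5.55 per the authors' deposited table.

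An eighth peak inside the Frmd4b body was assigned by the authors to Lmod3, a leiomodin gene that lies beyond the end of Frmd4b. It sat 268 kb into Frmd4b, in intron 7 of another Frmd4b transcript (chr6:97349766-97350065), with 3.53 in KO and 4.53 in CTR cells, a fold of -1.0 at FDR 0.367 per the authors' deposited table. Counting by gene body instead of by the authors' assignment, Frmd4b held 8 listed peaks with 6 lower in KO, and Pard3 held 3 with all 3 lower. Frmd4b thus had both of its higher peaks nearest the outermost start and its 6 lower ones beyond them, while the first 377 kb of Pard3 held no listed peak.

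**Figure D2:**
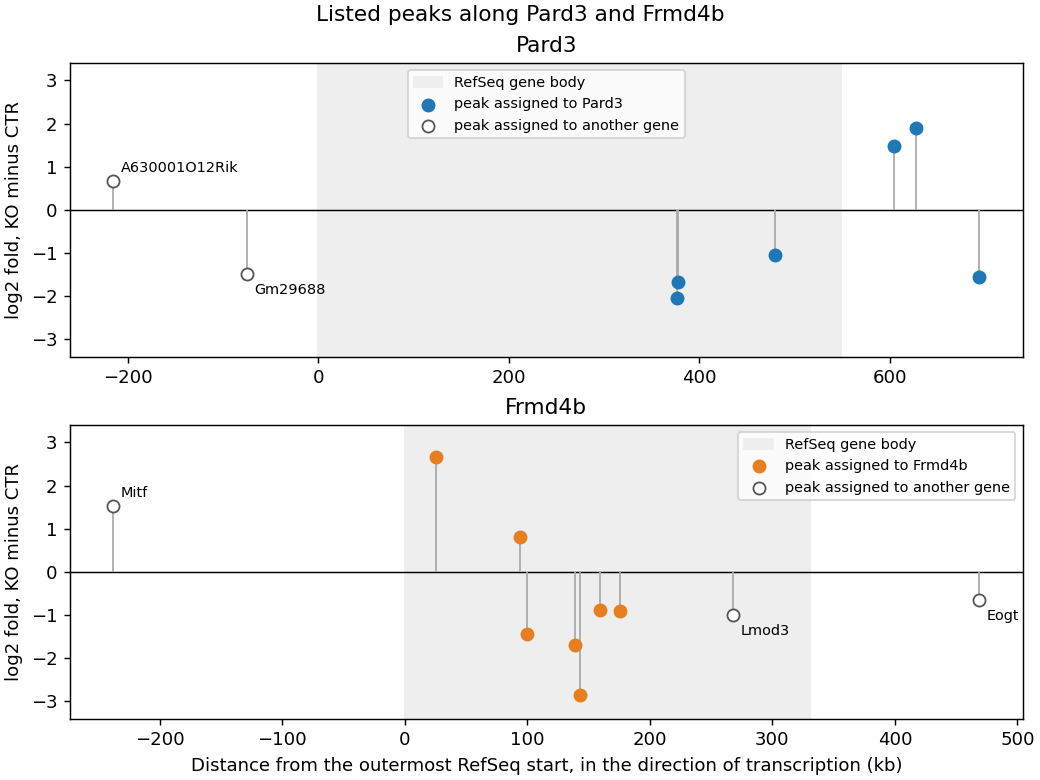
Log2 fold change, KO minus CTR (y axis), of listed peaks in and around each gene, by distance from the outermost RefSeq start in the direction of transcription in kb (x axis). Filled points are peaks assigned to Pard3 or Frmd4b and open points are peaks assigned to the gene written beside them; the 2 Frmd4b peaks above 0 lie at 25.5 and 94.3 kb and the 6 below 0 inside its body lie at 99.6 to 268 kb.

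None of the 13 peaks passed FDR < 0.05 per the authors' deposited table, a threshold passed by 3.02% of listed peaks. At unadjusted p < 0.05 all 13 were listed by construction. At FDR < 0.1 there was 1, the Pard3 peak on the LOC115486907 start, against 7.89% of listed peaks per the authors' deposited table. By unadjusted p, that peak had rank 530 and the Frmd4b peak at the KO floor had rank 615 of 6891. No single peak of either gene can therefore be called different between KO and CTR at FDR < 0.05.

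Of the 13 peaks, 9 stood lower in KO, where 37.9% of all listed peaks did. The median log2 fold was -1.30 over the Pard3 peaks and -0.90 over the Frmd4b peaks, against 0.93 over all listed peaks per the authors' deposited table. Direction in this table differs by location, so the same counts are given within class. In introns 8 of the 10 peaks were lower, where 44.5% of listed intron peaks were. Among the intergenic ones 1 of the 3 was lower, where 24.9% of listed intergenic peaks were. Restricted to intron peaks assigned to other genes at least as long as Frmd4b (331 kb), 71 of 286 peaks in 174 genes were lower, or 24.8%, with a median log2 fold of 1.19 per the authors' deposited table. Since Pard3 and Frmd4b were chosen on this contrast, no test of the difference is given.

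Listed peaks were also dense in Frmd4b, which was picked in part for having several. Among 472 protein-coding genes of at least its length, Frmd4b had the highest density, 2.42 listed peaks per 100 kb of gene body. It is the shortest gene of this set, shorter genes were not compared, and other genes of the set also held 8 listed peaks. The rank therefore describes the selection and tests nothing. Pard3 had 0.547 and rank 54, and the median was 0.124, with 208 genes holding no listed peak. Of the 67 such genes with at least 3 listed peaks in the body, 13 had lower KO levels at no fewer than 2 in 3 of them, both members included.

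Only 16 genes had 6 or more assigned peaks, and by the share of peaks lower in KO the order began with Frmd4b (5 of 7) and Pard3 (4 of 6). Fry, which encodes a large scaffold protein that works with NDR kinases, followed with 3 of 6. Foxl1, a forkhead factor gene, and Rgs3, a regulator of G protein signalling, had 2 of 6 each. Mir1904 had 1 of 6, Rasgef1b, an exchange factor gene, 1 of 7 and Efnb2, the ephrin-B2 gene, 1 of 8. Zfp462 had 0 of 7, and 1700061F12Rik and the 6 other genes had 0 of 6, among them the focal adhesion genes Tns3 and Dlc1, named after their values were seen. With a minimum of 4 peaks there were 121 genes, of which 14 had no fewer than 2 in 3 peaks lower and 40 had all peaks higher. Tmem181b-ps (5 of 5), Trak1 (4 of 4), Foxo1, Mef2c and Rybp (4 of 5 each) led those 14, and were named after their values were seen. Likeness here is a share of a few peaks per gene, from 1 comparison of group means.

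**Figure D3:**
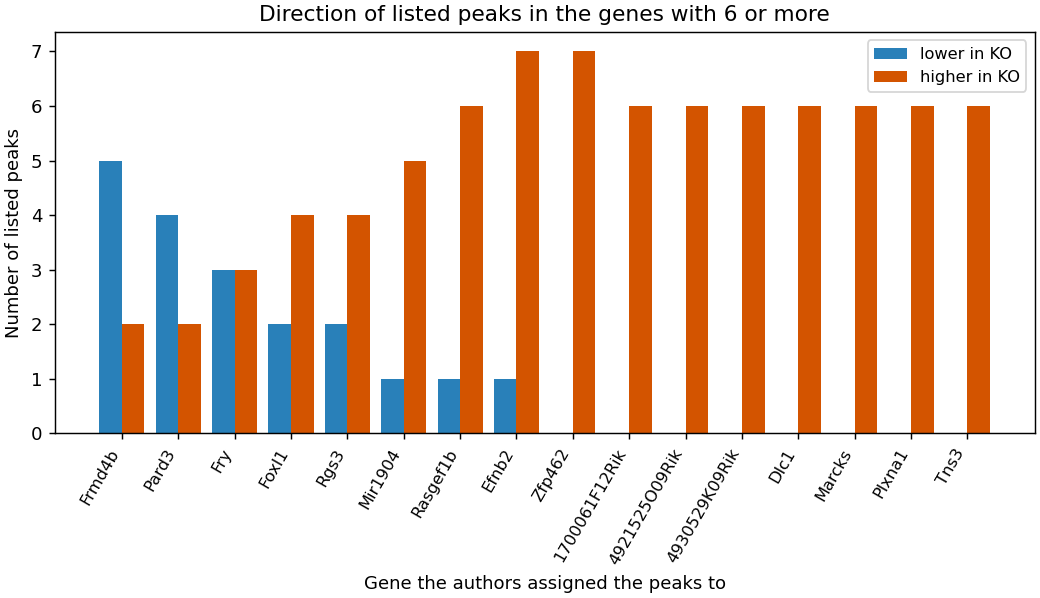
Number of listed peaks lower and higher in KO than in CTR (y axis) for each of the 16 genes with at least 6 assigned peaks (x axis). Frmd4b and Pard3 at the left are the genes with more lower than higher peaks, Fry has 3 of each, and the remaining 13 have more higher than lower peaks.

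The size of a fold went with the signal of the peak. In the table a weak peak is listed only when its fold is large. The 5 member peaks whose mean log2 signal reached the table's median of 3.74 had folds from -1.69 to 0.80, and 4 of them were lower, where 36.8% of listed peaks of that strength were per the authors' deposited table. The other 8 had folds from -2.84 to 2.67, and 5 were lower, where 39.1% of the weaker listed peaks were per the authors' deposited table. Most of the 13 peaks were narrow, 111 to 787 bases wide, where the median of all listed peaks was 269.

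**Figure D4:**
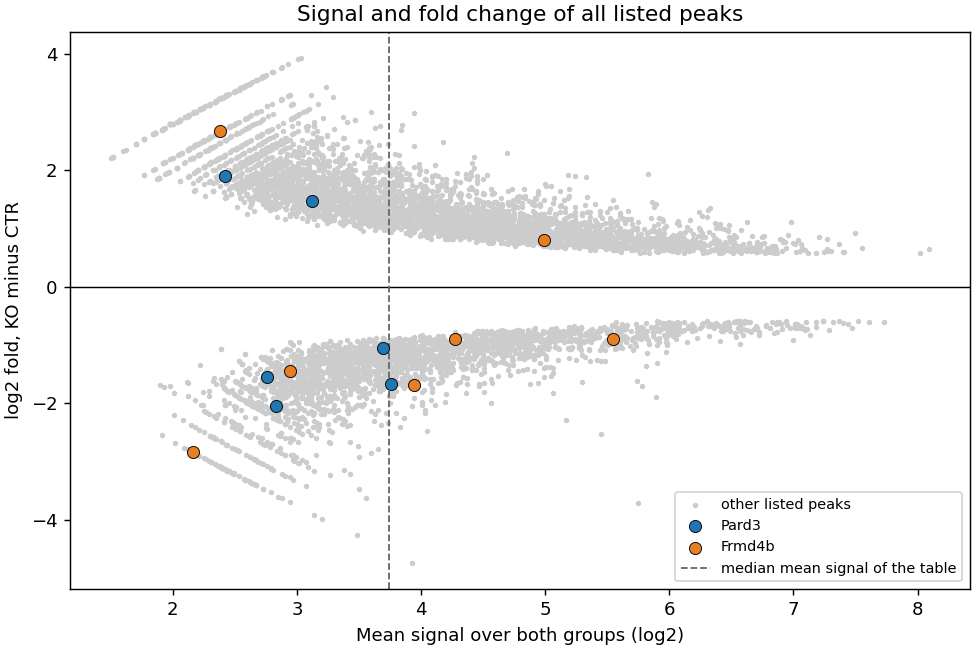
Log2 fold change, KO minus CTR (y axis), against mean log2 signal over both groups (x axis) for all 6891 listed peaks, in grey, with the Pard3 and Frmd4b peaks in colour; the dashed line is the median mean signal, 3.74. The gap around 0 reflects that the table holds peaks at unadjusted p up to 0.0499, and 8 of the 13 member peaks lie left of the line.

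The closest relatives of both genes had 2 assigned peaks each, and all 4 stood lower in KO. By location, 1 of these was in the 5' UTR class, 1 in an exon and 2 in introns. In those classes 67.9%, 67.7% and 44.5% of listed peaks were lower. Counted by gene body instead, Pard3b held 4 listed peaks with only 2 lower in KO, and Frmd4a held 2 with 2 lower. Pard3b encodes a second PAR3-type scaffold. Its 2 assigned peaks lay in the first exon and the first intron on chromosome 1, 389 and 756 bases from the start. They were 62 bases apart and may share an open region, so they are not independent observations. The exon peak had 2.29 in KO and 3.90 in CTR cells, a fold of -1.61 at FDR 0.279 per the authors' deposited table. The intron peak had 3.68 in KO and 4.92 in CTR cells, a fold of -1.24 at FDR 0.25 per the authors' deposited table. Unlike the Pard3 peaks, these sat at the gene's start. Frmd4a, the PAR3-binding relative of Frmd4b, had a peak in an intron with 4.28 in KO and 5.37 in CTR cells (-1.09, FDR 0.448) and one in an exon with 3.71 in KO and 4.73 in CTR cells (-1.02, FDR 0.431) per the authors' deposited table.

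Over 6 lists of polarity and junction genes, which hold 85 genes besides Pard3 and Frmd4b, 30 genes had 55 listed peaks. Of those 29 (52.7%) were lower and 26 higher in KO, where 37.9% of all listed peaks were lower, and their median log2 fold was -0.65, against 0.93 over all listed peaks, per the authors' deposited table. Location enters this share. Only a few of the 55 were promoter, 5' UTR or exon peaks. All of these were lower, in classes where 63.6%, 67.9% and 67.7% of listed peaks were. Intron peaks went both ways and most intergenic ones were higher, where 44.5% and 24.9% of listed peaks were lower. How much location adds was not tested. None of the 55 passed FDR < 0.05, where 3.02% of all listed peaks did.

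The PAR complex and partners accounted for 9 of these peaks, 6 of them lower. Tiam2, an exchange factor for RAC that belongs to the family of PAR3-binding TIAM proteins, went the other way at 3 of its 4 peaks. Its smallest FDR was 0.111, at an intron peak with 3.45 in KO and 0.67 in CTR cells per the authors' deposited table. For Rac1, the small GTPase gene, the 1 assigned peak lay in an intron of Daglb and had a fold of -1.23 at FDR 0.415 per the authors' deposited table. The genes of the catalytic partners, Prkci and Prkcz, had 0 listed peaks, as did Cdc42, Pard6a and Pard6b, while Pard6g had 1 with a fold of -1.04 at FDR 0.51 per the authors' deposited table. The Crumbs complex list, 10 apical polarity genes under current and older symbols, had 0 listed peaks.

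The FERM domain and cytohesin list gave 5 lower and 5 higher peaks besides Frmd4b. Cyth3, whose product is the partner of FRMD4B, had 1 intron peak with 4.05 in KO and 2.40 in CTR cells, a fold of 1.65 at FDR 0.38 per the authors' deposited table. Cyth4, another cytohesin gene, had 2 lower peaks (smallest FDR 0.36, fold -1.59), and Frmd6, a FERM gene of the Hippo pathway, had 3 higher ones (smallest FDR 0.37, fold 1.32) per the authors' deposited table. The Cyth4 peak of smallest FDR was intergenic. So were all 3 Frmd6 peaks, at -93119 to -112681 bases from the Frmd6 start. Arf6 had 0 listed peaks.

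The Scribble complex list, of basolateral polarity, had 3 lower and 2 higher peaks. They included Dlg1 (1.96, FDR 0.168), Erbin (-1.04, FDR 0.237), 2 peaks of Dlg2 with opposite signs (-1.59, FDR 0.25 for the first) and Dlg5 (-0.81, FDR 0.471) per the authors' deposited table. The planar cell polarity list had 6 lower and 6 higher. Its smallest FDRs were at Celsr1, a cadherin gene (-1.67, FDR 0.281), Prickle2 (1.83, FDR 0.291), the protocadherin gene Fat4 (1.61, FDR 0.313) and the receptor gene Ptk7 (-1.75, FDR 0.331) per the authors' deposited table.

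Endothelial junction genes had 9 lower and 10 higher peaks. Magi1, a junction scaffold gene, had 5 peaks, 2 lower and 3 higher. The one of smallest FDR, 0.0891, was intergenic and stood at the KO floor of 0.13, against 3.08 in CTR cells per the authors' deposited table. Cdh5, the gene of VE-cadherin to which PAR3 binds, had 2 peaks with higher KO levels, the first at 2.60 and FDR 0.134 per the authors' deposited table. Both were intergenic, at -162338 and -73926 bases from the Cdh5 start, in a class where 24.9% of listed peaks were lower. Magi3 had 3 higher peaks, the first in an intron (2.07, FDR 0.163) and the rest intergenic. Jam3, a junctional adhesion molecule gene, had 1 lower peak, also intergenic (-2.01, FDR 0.213), per the authors' deposited table.

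**Figure D5:**
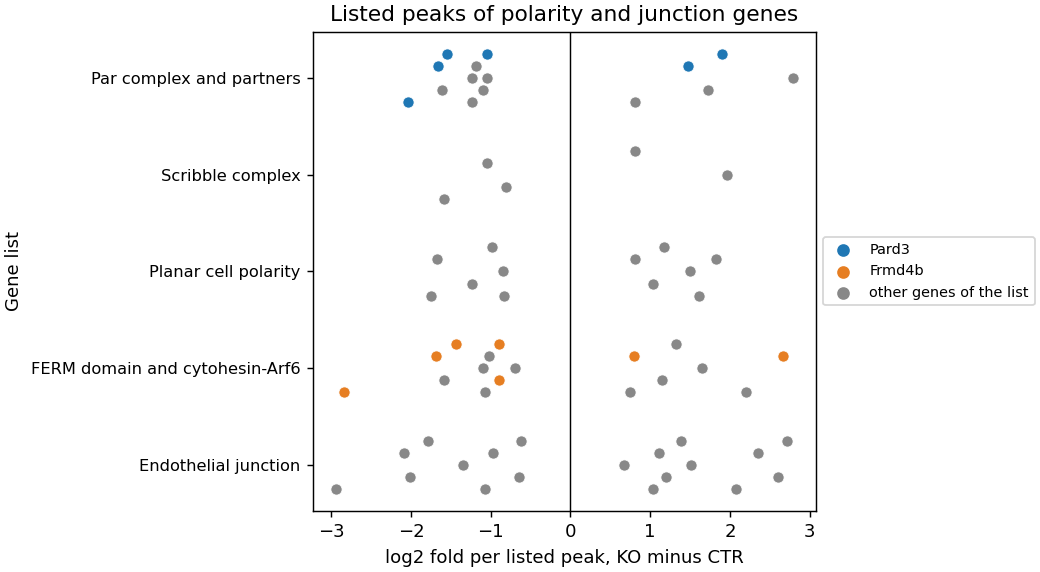
Log2 fold change of each listed peak, KO minus CTR (x axis), for the 5 polarity and junction lists that held listed peaks (y axis; points are spread vertically within a list only to separate them). Blue points are Pard3, orange points Frmd4b and grey points other genes; grey points lie on both sides of 0 in every list, 29 below and 26 above.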

How the data were processed

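ATAC-seq libraries of CD31-selected retinal endothelial cells were compared by the authors, who deposited 1 table of 6891 peaks, used here from the workbook. The authors deposited the mean, KO and CTR level of each peak and the fold change as log2 values, with an unadjusted p-value and an FDR. The fold equalled KO minus CTR within 0.01, and the mean column equalled log2 of the average of both linear group levels within 0.00948. The submitters' processing notes give mm10 as the build and list, without roles, DiffBind, edgeR, ChIPseeker, MACS2, deepTools, Picard 1.119, Bowtie2, SAMtools and Trimmomatic 0.36. How peaks were merged, reads shifted and signal scaled is not stated in the sources used here. Libraries whose labels contradict each other were left unassigned.

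Peaks were taken by the authors' gene name, counted by direction and set beside all listed peaks with Python 3.11.15 and pandas 2.3.3. The counting was checked on simulated directions. No test was run here: the FDR is the authors'. The members, gene lists and motifs were chosen with earlier results of these data known. Named genes were all members, up to 4 genes of smallest p per polarity list, the paralogs, and genes flanking the members or overlapping a member peak. They also included the 10 genes with the largest lower share among those with at least 6 peaks. Outside that rule, list genes with no or 1 listed peak (Prkci, Prkcz, Cdc42, Pard6a, Pard6b, Pard6g, Arf6), Eogt, Fli1, Ank1, Tns3, Dlc1, Tmem181b-ps, Trak1, Foxo1, Mef2c and Rybp were named after their values were seen. Promoters, gene bodies and start sites are from RefSeq (GRCm38.p6), and no genome sequence of the peaks was used. Alternatives covered stricter p and looser FDR thresholds, mean signal, fold of at least 1, column minima, gene body assignment and 50 kb distance.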

Additional observations from a re-analysis of the deposited data

How the results depend on the processing

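The median log2 fold of the member peaks was negative in each setting tried. The genes were picked for mostly lower KO levels and the settings reuse nearly the same peaks, so this sign restates the selection. At a listing threshold of 0.01 the lower peaks were 2 of 2 for Pard3, 2 of 3 for Frmd4b and 8 of 18 for the other polarity genes, where 38.6% of all peaks at that threshold were lower, and the member median was -1.66. At mean signal at or above the median they were 1 of 1, 3 of 4 and 16 of 26, where 36.8% of all such peaks were lower, with a member median of -0.90. Among folds of 1 or more in size on the log2 scale, Frmd4b had 3 of 4 lower, where 37.4% of all such peaks were, and the member median was -1.495. Without peaks at a column minimum the median was -0.975, and within 50 kb of a start it was -0.90, there from Frmd4b alone, since no Pard3 peak lies that close. Within that distance Frmd4b had 5 of 7 lower and the other polarity genes 23 of 33, where 43.8% of all such peaks were. Member peaks past FDR < 0.1 and FDR < 0.2 numbered 1 and 3 of 13, where 7.89% and 20.4% of all listed peaks passed. Fewer peaks enter the stricter settings by construction. No paired analysis was possible because the table gives 1 mean per group, and for the same reason no library could be left out. Depth per library is unknown.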

Other observations

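Beyond Pard3 and Frmd4b, listed peaks in the flanking regions were few. Upstream of Frmd4b the next protein-coding gene is Mitf, a transcription factor gene of pigment and other cells, with 2 listed peaks, of which an intron peak had 4.53 in KO and 3.00 in CTR cells, a fold of 1.53 at FDR 0.17 per the authors' deposited table. On the other side, past Lmod3, the promoter peak of Eogt, a glycosyltransferase gene whose enzyme modifies Notch, had 6.65 in KO and 7.31 in CTR cells, a fold of -0.66 at FDR 0.335 per the authors' deposited table. Rbm34, the nearest protein-coding gene before Pard3, had 0 listed peaks. Peaks assigned to other genes were listed there. An intergenic one lay at -74.8 kb from the outermost Pard3 start (fold -1.49, FDR 0.52). A promoter peak lay at -215 kb (fold 0.66, FDR 0.477) per the authors' deposited table.

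Listed peaks of cell type markers went both ways. Of 14 pan-endothelial markers 6 had peaks, 4 lower and 8 higher in KO, where 37.9% of all listed peaks were lower. Retinal neuron markers had 5 lower and 6 higher, Müller glia and astrocyte markers 1 and 3, pericyte and smooth muscle markers 1 and 1, and microglia and erythroid markers 2 and 1. Over these 5 lists 2 peaks passed FDR < 0.05, where 3.02% of all listed peaks did. They were 1 of the 3 microglia and erythroid peaks, in an intron of the erythroid ankyrin gene Ank1 (-2.17, FDR 0.0366), and 1 of the 12 pan-endothelial peaks, in an intron of the ETS factor gene Fli1 (-1.81, FDR 0.039), per the authors' deposited table. Neither gene went 1 way. The other Ank1 peak, at a promoter, was higher in KO (2.22, FDR 0.245), and Fli1 had 2 lower and 2 higher peaks. Since the table does not list unchanged peaks, the share of other cells in either group was not tested.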
